A study of Homo sapiens with 12 samples.

Results

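The HOX cluster genes encode homeodomain transcription factors that give cells their position along the body axis, and they lie side by side in the HOXA, HOXB, HOXC and HOXD clusters. Genes with low numbers (HOXB1, HOXB2) sit at the 3′ end of a cluster and act towards the head, and genes with high numbers (HOXA13, HOXC13) sit at the 5′ end and act towards the tail and the limb tips. Genes that share a number in different clusters are paralogs with closely related homeodomains. Adult cells and tumour lines usually keep a fixed combination of active HOX genes. Inactive ones are held off by Polycomb complexes, and active ones are kept on by the MLL/Trithorax complexes.

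Members were all genes of the deposited count table whose name is HOXA, HOXB, HOXC or HOXD followed by a number, with 1 gene of the HOXB cluster left out by the selection rule, and 37 of the 32077 genes qualified. These were 11 HOXA genes on the minus strand of chromosome 7 (27092993 to 27200106, GRCh38), 9 HOXB genes on the minus strand of chromosome 17 (48528526 to 48633572), 9 HOXC genes on the plus strand of chromosome 12 (53938765 to 54056030) and 8 HOXD genes on the plus strand of chromosome 2 (176092891 to 176190907). Poly(A)-selected RNA was sequenced from the established human prostate cancer lines PC3 and DU145, which grow without androgen, after 48 h with 2.5 μmol/L pentamidine, an antiprotozoal diamidine, or with its vehicle, sterile water. Each of the 4 groups (PC3 vehicle, PC3 pentamidine, DU145 vehicle, DU145 pentamidine) had 3 samples, and 1 dose and 1 time were sampled. The comparisons asked which HOX genes each line used and whether the drug altered them. No label says that the 3 samples of a group came from separate cultures, so p-values measure the spread between these samples, which may be technical. In bulk RNA, fewer cells expressing a gene and less of its RNA per cell cannot be told apart.

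Total counts were 13514195 to 15131436 reads per sample. Defining markers went against the line labels, which is stated here because every comparison between the lines rests on those labels. The epithelial genes EPCAM and CDH1 had 0 to 5 reads in each of the vehicle libraries of both lines, and of the 4 epithelial markers listed only KRT8 and KRT18 were expressed. KRT8 was at 18.5 to 21.4 CPM (reads scaled by the library total) in vehicle libraries labelled PC3 and at 2613 to 2791 CPM in those labelled DU145. CTNNA1, which is known to be deleted in PC3, was at 431 to 442 CPM in vehicle libraries labelled PC3. The mesenchymal marker VIM was expressed in both lines, FN1 and CDH2 were mainly in libraries labelled PC3, and the blood marker PTPRC and the fibroblast marker DCN had 0 or 1 reads in every library. The study's methods state that the lines had been authenticated by short tandem repeat profiling, and the identity of the libraries was not tested here. Below, PC3 and DU145 mean the libraries labelled so. The pentamidine comparisons are within a label and do not use the difference between lines.

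A HOX gene was called on in a group when each of the 3 samples had at least 10 reads, at the limit of detection when each had 3 or fewer, and low otherwise. CPM values were scaled between libraries by the trimmed mean of M values (TMM), and levels of different genes are compared only as CPM per kilobase of exon. In vehicle-treated cells 21 of the 37 members were on in PC3 and 23 were on in DU145, 56.8% and 62.2% of the members, against 40.6% and 42% of all genes in the table. At a minimum of 1 CPM per kb in each sample the order of the lines turned, with 19 members on in PC3 and 15 in DU145. By reads, 19 members were on in both vehicle groups. HOXB1, HOXC11, HOXC12, HOXD11, HOXD12 and HOXD13 were at the limit in both vehicle groups, with at most 1 read in any sample of either. HOXB8, HOXD3 and HOXD4 were low in both. Of the exon bases of HOXD3 and HOXD4, 62.2% and 80.5% are shared with AC009336.2 on the same strand. How reads in shared exons were counted is not given. Of the summed CPM of the 37 members, HOXB supplied the largest share, 58.4% ± 1.23 in PC3 and 43.1% ± 1.28 in DU145 (SD, n = 3). The HOXD members supplied the smallest, 3.06% ± 0.308 and 8.07% ± 0.624.

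**Figure D1:**
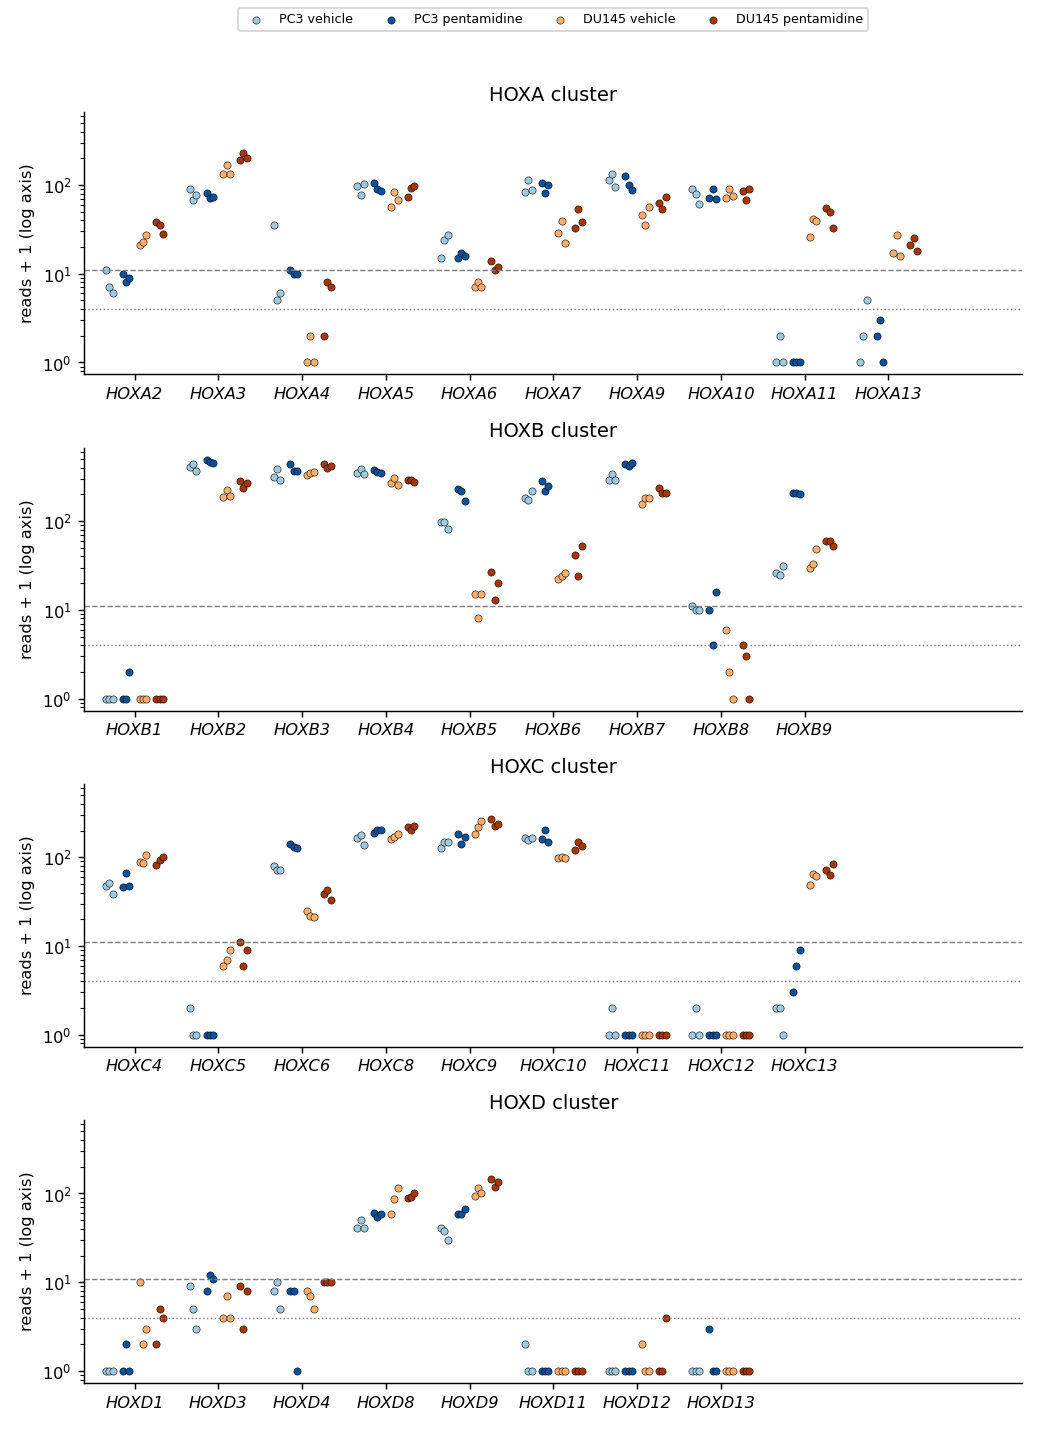
Reads per sample plus 1 on a log axis (vertical) for the members reported by name, ordered by number within each cluster (horizontal), with 1 point per library coloured by line and treatment. The dashed line marks 10 reads and the dotted line 3 reads. HOXA11 and HOXC13 are near the floor in PC3 vehicle and at 25 to 63 reads in DU145 vehicle, while HOXB1, HOXC11 and HOXC12 are at the floor in both.

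In the HOXA cluster 7 of 11 members were on in PC3 and 9 in DU145. HOXA5, a regulator of lung and axial patterning, had the highest level per kilobase in PC3 (3.7 CPM per kb), with 96, 76 and 102 reads. In DU145 it was at 2.82 CPM per kb, with 55, 82 and 67 reads. The boundary at the 5′ end differed between the lines. HOXA10, which acts in the uterus and the developing limb, had 89, 78 and 60 reads in PC3 and 71, 88 and 75 in DU145, and the ranges overlapped. Its neighbour HOXA11 had 0, 1 and 0 reads in PC3 and 25, 40 and 38 in DU145. HOXA13, needed for the digits and the genital tubercle, had 0, 1 and 4 reads in PC3 and 16, 26 and 15 in DU145. Thus in PC3 the reads stopped between HOXA10 and HOXA11, and in DU145 they continued through HOXA13. HOXA11-AS and HOTTIP, the transcripts beside HOXA11 and HOXA13, had 0 reads in every PC3 library and 0 to 5 in the DU145 libraries. At the 3′ end, HOXA2 was on in DU145 (20, 22 and 26 reads) and low in PC3 (10, 6 and 5). In the middle, HOXA6 was on in PC3 (14, 23 and 26 reads) and low in DU145 (6, 7 and 6). HOXA4 was low in PC3, with 34, 4 and 5 reads, so 1 library held most of them, and at the limit in DU145, with 0, 1 and 0.

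The 250 bases before the start sites of the posterior pair HOXA11 and HOXA13 are shown because these neighbours were together absent or nearly so in PC3 and on in DU145. The windows were taken from RefSeq (GRCh38.p14, chromosome 7, minus strand, 5′ to 3′). HOXA11 was read at chr7:27185233-27185482 and HOXA13 at chr7:27200092-27200341. Capitals mark any match, on either strand, to TATAAA, to CCAAT, to CACGTG (which reads the same on both strands), TGATNNAT, to TGATGNAA or to TGACGTCA.
HOXA11: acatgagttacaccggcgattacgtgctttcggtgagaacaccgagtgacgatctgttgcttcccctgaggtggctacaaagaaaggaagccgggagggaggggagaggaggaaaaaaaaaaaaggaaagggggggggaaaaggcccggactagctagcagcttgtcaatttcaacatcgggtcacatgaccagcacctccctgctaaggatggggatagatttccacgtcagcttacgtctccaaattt
HOXA13: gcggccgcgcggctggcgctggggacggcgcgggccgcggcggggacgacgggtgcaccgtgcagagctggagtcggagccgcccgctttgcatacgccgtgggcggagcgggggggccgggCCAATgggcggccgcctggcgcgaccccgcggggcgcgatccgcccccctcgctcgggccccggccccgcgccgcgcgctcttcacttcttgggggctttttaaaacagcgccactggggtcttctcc
HOXA13 held 1 CCAAT, 128 bases before the start, and the HOXA11 window held none of these letters. Windows were found for 19 of the 37 members. CCAAT was in 84.2% of these 19 and in 32% of the 35116 promoter windows of the table. For TATAAA the shares were 21.1% and 10.7%, and for CACGTG 31.6% and 6.34%. TGATNNAT, the paired PBX-HOX motif, was in 15.8% and 6.47%, TGATGNAA in 0% and 3.14%, and TGACGTCA in 0% and 1.65%. HOXC4 and HOXC5 share 1 window, and these letters describe the windows only.

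In the HOXB cluster 7 of 9 members were on in PC3 and 6 in DU145. HOXB7, which is often high in epithelial tumours, had the highest level per kilobase of the cluster in both lines, 13.7 CPM per kb in PC3 with 286, 341 and 291 reads, and 8.01 CPM per kb in DU145 with 155, 181 and 182 reads. The PC3 libraries were all above the DU145 libraries. HOXB2, HOXB3 and HOXB4, the hindbrain genes of the cluster, were on in every library, with 185 to 441 reads in the vehicle samples. HOXB5 had 97, 98 and 81 reads in PC3 and 14, 7 and 14 in DU145, where 1 sample below 10 reads made it low. HOXB6 had 180, 173 and 215 reads in PC3 and 21, 23 and 25 in DU145. For HOXB5 and HOXB6 no PC3 library came near a DU145 library. HOXB9, at the 5′ end, was on in both with 25, 24 and 30 reads in PC3 and 29, 32 and 48 in DU145. HOXB8 between HOXB7 and HOXB9 was low, with 9 or 10 reads in each PC3 library and 0 to 5 in DU145.

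In the HOXC cluster HOXC4, HOXC6, HOXC8, HOXC9 and HOXC10 were on in both lines. HOXC8, a thoracic gene, was highest per kilobase in PC3 (5.77 CPM per kb, with 164, 178 and 137 reads), and HOXC9 in DU145 (9.2 CPM per kb, with 183, 217 and 255 reads). In PC3 HOXC9 was at 5.75 CPM per kb, next to HOXC8. HOXC13, known for its role in hair and nail, had 1, 1 and 0 reads in PC3 and 48, 63 and 60 in DU145, although HOXC11 and HOXC12, which lie between it and HOXC10, were at the limit in both. HOXC13 in DU145 was therefore on apart from the block of active HOXC genes. HOXC5 had 1, 0 and 0 reads in PC3 and 5, 6 and 8 in DU145. Of its exon bases 59.9% are shared with other annotated entries on the same strand, and how such reads were counted is not given. Of the HOXD members only HOXD8 and HOXD9 were on in both lines. HOXD10, annotated with exon bases shared with HOXD11, was not among the members, so its level is not known here. HOXD9, a gene of the trunk and forelimb, was the highest of the HOXD members per kilobase in both lines. It was at 1.29 CPM per kb in PC3 with 40, 37 and 29 reads and 3.86 in DU145 with 92, 113 and 100. HOXD1 had 0 reads in every PC3 vehicle library and 9, 1 and 2 in DU145. Of its exon bases 58.1% lie opposite other transcripts, among them HAGLR, and whether counting used the strand is not given.

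Levels in the vehicle libraries of the 2 lines were compared by the quasi-likelihood F test of edgeR, with p-values adjusted after Benjamini and Hochberg over all genes tested, and a gene was called at an absolute log2 fold change above 1 with an adjusted p below 0.05. Of the 37 members 25 passed the filter on low counts, which a gene can pass through its higher group alone. Of these, 13 were called, 6 higher and 7 lower in PC3, where 19.2% of all 14394 genes tested were called, 7.52% higher and 11.7% lower. At the adjusted p alone 20 passed, 10 in each direction, against 65.3% of all genes, 31.5% higher and 33.8% lower. The samples of 21 members did not overlap, 10 higher and 11 lower, against 69.1% of all genes, 34.7% higher and 34.4% lower. The median log2 fold change was -0.15 over the tested members and -0.01 over all genes.

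The members called higher in PC3 were HOXB5, HOXB6, HOXC6, HOXA6, HOXA7 and HOXA9. HOXB6 was higher by 2.97 on the log2 scale (SE 0.19, adjusted p = 7.8e-10, edgeR) and HOXB5 by 2.89 (SE 0.24, adjusted p = 2.7e-08, edgeR). HOXC6, with 79, 71 and 71 reads in PC3 and 24, 21 and 20 in DU145, was higher by 1.68 (SE 0.21, adjusted p = 2.6e-06, edgeR). HOXA6, HOXA7 and HOXA9, neighbours in HOXA, were higher by 1.64, 1.61 and 1.26. Each of these groups stood apart without overlap. HOXA-AS3, on the opposite strand, covers 62.5% of the exon bases of HOXA7 and 39.3% of those of HOXA6. Whether counting used the strand is not given, so reads of these genes and HOXA-AS3 cannot be told apart. The members that were lower in PC3 included the 5′ genes HOXA11, HOXA13 and HOXC13. Because few reads were seen in PC3, their ratios are given from summed reads with intervals that cover counting error only. HOXA11 was 103-fold higher in DU145 (103 reads against 1, exact 95% interval 18 to 4.1e+03) and HOXC13 85.3-fold (171 against 2, interval 23.2 to 710). HOXA13 was 11.4-fold higher in DU145 (57 against 5, interval 4.6 to 36.3). All 3 passed the filter through DU145 alone, so their calls carry no weight beyond these reads. HOXA6 and HOXB5, low in DU145, and HOXA2, low in PC3, likewise had at least 10 reads in every sample of the higher line only. Their calls carry the same limit. HOXD9 (log2 fold change -1.6, SE 0.18, adjusted p = 6.1e-07, edgeR) and HOXD8 (-1.05, SE 0.22), which had 40, 49 and 40 reads in PC3 and 57, 85 and 113 in DU145, were both lower in PC3, as were HOXA2 (-1.75) and HOXC4 (-1.11).

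Paralogs did not move alike between the lines. In paralog group 9, HOXA9 was higher in PC3 (112, 132 and 95 reads against 45, 34 and 55) and HOXC9 and HOXD9 were lower, while HOXB9 had a log2 difference of -0.53 (SE 0.26, adjusted p = 0.085, edgeR) with overlapping samples. In paralog group 13 HOXA13 and HOXC13 were on only in DU145 and HOXD13 was at the limit in both. Among members with no call, HOXA10 differed by -0.12 (95% interval -0.45 to 0.21) and HOXB3 by -0.15 (-0.32 to 0.03).

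**Figure D2:**
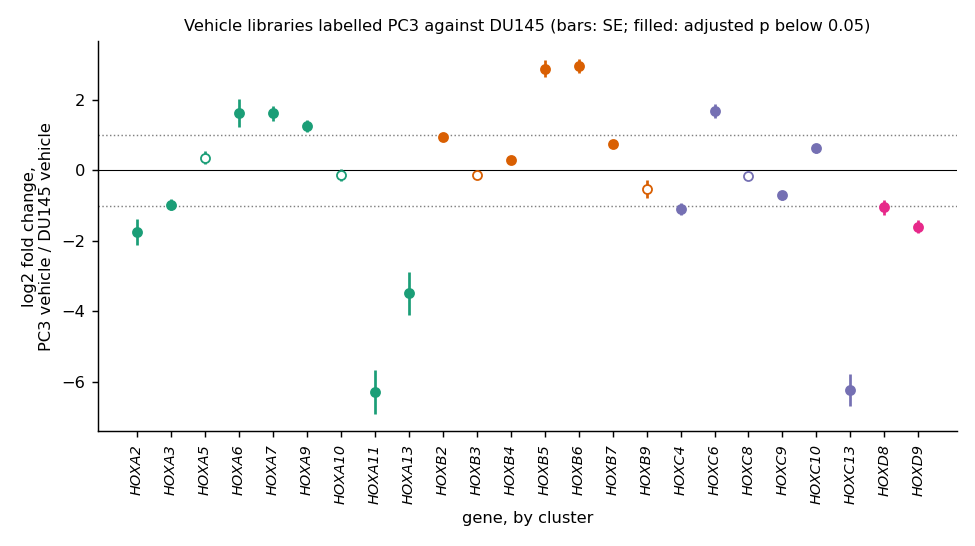
Log2 fold change of PC3 vehicle over DU145 vehicle (vertical) for the tested members reported by name, ordered by cluster and number (horizontal) and coloured by cluster, with bars of 1 SE and filled points where the adjusted p was below 0.05. Dotted lines mark a log2 fold change of 1 in either direction. HOXB5 and HOXB6 stand highest, near 2.9, and HOXA11 and HOXC13 lowest, below -6.

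Pentamidine left the set of active HOX genes in PC3 in place and raised part of it. The same 21 members were on in the vehicle and the pentamidine group. Summed over the members, the level was 201 ± 3.23 CPM with vehicle and 255 ± 12.4 with pentamidine (SD, n = 3). The HOXB sum went from 118 ± 4.11 to 159 ± 7.88 CPM and did not overlap, and the HOXA sum was 37.7 ± 1.49 and 37 ± 3.42. Of the 21 members that passed the filter, 9 passed at 0.05 (edgeR, adjusted over 13861 genes), and all 9 were higher. Over all genes 43.4% passed, 21.7% higher and 21.7% lower, so the members' share of 42.9% lay near the background. The samples did not overlap for 8 members, each higher with the drug, against 52.1% of all genes, 26.1% in either direction. The median log2 fold change was 0.23 over the members and 0.00457 over all genes. By cluster, the adjusted p passed for 6 of 7 tested HOXB genes, 2 of 5 HOXC, 1 of 2 HOXD and 0 of 7 HOXA genes, of which 0 had an unadjusted p below 0.05 in edgeR and 0 passed with DESeq2 or limma.

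HOXB9 rose most. It had 25, 24 and 30 reads in the PC3 vehicle libraries and 205, 209 and 199 in the pentamidine libraries. The lowest treated library was far above the highest vehicle library, and the spread within either group was small beside that gap. Its level went from 1.82 ± 0.346 to 14.04 ± 0.736 CPM (SD, n = 3), a 7.76-fold rise (log2 fold change 2.96, SE 0.16, adjusted p = 2.1e-10, edgeR), the 45th highest log2 fold change of the genes tested. Ranked per kilobase within the 37 members, HOXB9 moved from place 21 to place 8. HOXB9 lies at chromosome 17, 48621159 to 48626356, shares no exon bases with another annotated gene, and is nested in the span of the longest HOXB7 transcript. It is a posterior gene of the thoracic skeleton and mammary gland that has been tied to epithelial tumour spread.

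The 180 bases of the homeobox are shown for HOXB9 and its paralogs HOXC9 and HOXD9 because paralogs have closely related homeodomains. Sharing of reads between genes was not tested. They were read from the GENCODE v29 coding transcripts, 5′ to 3′ on the coding strand, and capitals mark bases that differ from HOXB9.
HOXB9: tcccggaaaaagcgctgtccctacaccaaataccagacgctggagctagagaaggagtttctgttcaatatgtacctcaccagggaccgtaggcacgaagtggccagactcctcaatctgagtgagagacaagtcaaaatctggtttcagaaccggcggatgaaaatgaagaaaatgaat
HOXC9: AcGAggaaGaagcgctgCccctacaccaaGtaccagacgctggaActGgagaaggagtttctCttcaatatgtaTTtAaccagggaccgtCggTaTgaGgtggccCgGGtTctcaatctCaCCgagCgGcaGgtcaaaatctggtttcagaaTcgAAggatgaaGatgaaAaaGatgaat
HOXD9: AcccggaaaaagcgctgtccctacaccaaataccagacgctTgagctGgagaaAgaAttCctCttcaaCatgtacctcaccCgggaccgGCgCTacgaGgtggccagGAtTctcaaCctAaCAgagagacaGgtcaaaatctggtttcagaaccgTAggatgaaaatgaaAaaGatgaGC
HOXC9 differed from HOXB9 at 32 bases and HOXD9 at 28, identities of 82.2% and 84.4%. The longest run of identical bases between HOXB9 and any other member was 40, with HOXD9. The paralogs gave smaller values in PC3, and the difference between genes was not tested. HOXA9 had 112, 132 and 95 reads with vehicle and 125, 100 and 87 with pentamidine (log2 fold change -0.11, SE 0.16), and the groups overlapped. HOXC9 had 125, 148 and 148 and then 182, 139 and 169 reads (0.22, SE 0.13, adjusted p = 0.19, edgeR). HOXD9 had 40, 37 and 29 and then 58, 58 and 66 reads (0.79, SE 0.2, adjusted p = 0.004, edgeR), with every treated library above every vehicle library.

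HOXB5 was the other member called in PC3, with 97, 98 and 81 reads and then 228, 219 and 167. The treated libraries were all higher, the third less so, and the log2 fold change was 1.16 (SE 0.14, adjusted p = 4.9e-06, edgeR). Members called in the higher direction were thus 2 of 21, where 4.75% of all genes were called, 3.44% higher and 1.31% lower. HOXB7 went from 286, 341 and 291 to 441, 421 and 448 reads, a log2 fold change of 0.52 (SE 0.08, adjusted p = 6.9e-05, edgeR), and HOXC6 from 79, 71 and 71 to 139, 131 and 126 (0.85, SE 0.14, adjusted p = 1.3e-04, edgeR). Neither gene's groups overlapped. HOXB6 (180, 173 and 215 to 285, 220 and 247 reads) had a log2 fold change of 0.4, HOXC8 (164, 178 and 137 to 189, 201 and 200) 0.31, HOXB3 (313, 384 and 289 to 436, 363 and 363) 0.25 and HOXB2 (407, 441 and 367 to 489, 462 and 448) 0.21, with adjusted p of 0.018, 0.033, 0.046 and 0.031 (edgeR). HOXB3 and HOXB6 overlapped between the groups on the CPM scale. With single libraries left out, these last 4 were each lost in 2 to 4 of 6 fits, with adjusted p of up to 0.24 (HOXB3).

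HOXB4, which lies between HOXB3 and HOXB5, was the tested HOXB gene that did not pass, with 347, 385 and 343 reads and then 376, 356 and 348. Its log2 fold change was 0.01 (95% interval -0.15 to 0.17). Along the cluster the fold changes in PC3 were between 0.01 and 0.25 for HOXB2 to HOXB4 and between 0.4 and 2.96 for HOXB5, HOXB6, HOXB7 and HOXB9. HOXB8, on the same stretch, had 10, 9 and 9 reads and then 9, 3 and 15 and was not tested. HOXB3 shares exon bases with HOXB4 and with HOXB6, and HOXB5 and HOXB6 overlap exons of HOXB-AS3 on the other strand. Whether counting used the strand is not given in the sources used here, so reads of a gene and its antisense partner cannot be told apart.

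**Figure D3:**
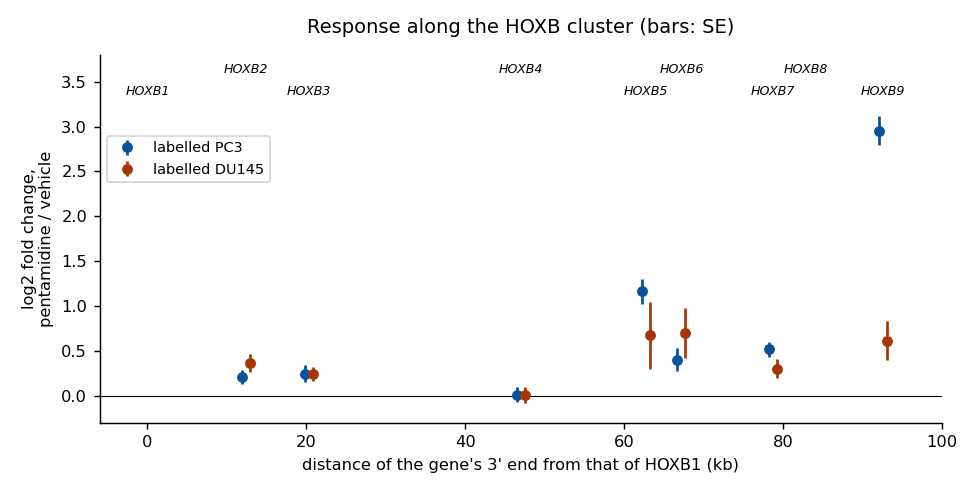
Log2 fold change of pentamidine over vehicle (vertical, bars of 1 SE) against the distance of each HOXB gene from HOXB1 in kb (horizontal), in blue for PC3 and brown for DU145. HOXB9 in PC3 stands at 2.96 and in DU145 at 0.62, HOXB4 lies at 0.01 in both, and HOXB1 and HOXB8 carry a name only, since they were not tested.

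The HOXA genes of PC3 gave values on both sides of 0, from -0.48 for HOXA6 (14, 23 and 26 reads and then 14, 16 and 15, SE 0.34, adjusted p = 0.27, edgeR) to 0.02 for HOXA10 (70, 89 and 69 reads with the drug, SE 0.18, adjusted p = 0.94, edgeR) among the members named here. HOXA11 stayed at 0 or 1 reads in all 6 PC3 libraries. HOXA13 had 1, 2 and 0 reads with the drug, and so moved from low to the limit. HOXC13 had 2, 5 and 8 reads with pentamidine against 1, 1 and 0, a ratio of 7.44 from 15 reads against 2 (exact 95% interval 1.73 to 67.1, counting error only), and was not tested within PC3.

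In DU145 the pentamidine group had 25 members on, the 23 of the vehicle group and HOXA6 and HOXB5, which crossed 10 reads. HOXA6 had 6, 7 and 6 reads and then 13, 10 and 11. HOXB5 had 14, 7 and 14 and then 26, 12 and 19. These crossings turn on a few reads, and the HOXB5 groups overlapped. The sum over all members was 176 ± 5.91 CPM with vehicle and 210 ± 11.5 with pentamidine (SD, n = 3), with the HOXB sum at 75.8 ± 2.53 and 90.1 ± 7.44 and the HOXA sum at 38.9 ± 2.73 and 47.5 ± 0.184.

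Of 24 members tested in DU145, 10 passed at 0.05 (edgeR, adjusted over 14313 genes), all higher, and 11 had an unadjusted p below 0.05. By edgeR 0 were called at an absolute log2 fold change above 1, as by DESeq2 and limma, where 2.03% of all genes were called, 1.37% higher and 0.657% lower. At the adjusted p alone 34% of all genes passed, 17.2% higher and 16.8% lower. With library size alone in place of TMM this split of all genes moved from 2459 higher and 2401 lower to 3282 and 1645, and the count of members was again 10. The samples of 10 members did not overlap, each higher, against 44% of all genes, 21.9% higher and 22.1% lower. The median log2 fold change was 0.34 over the members and 0.00847 over all genes. The members that passed were 1 of 9 tested in HOXA, 5 of 7 in HOXB, 3 of 6 in HOXC and 1 of 2 in HOXD.

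Of the 9 tested HOXA genes in DU145, 8 had a fold change above 0 and 1 below, with a median log2 fold change of 0.36. HOXA2 gave 0.5 (SE 0.28, adjusted p = 0.16, edgeR) without overlap. HOXA7 and HOXA9 each gave 0.45, with overlap and adjusted p of 0.18 and 0.083 (edgeR). HOXA3, a pharyngeal arch gene, was the HOXA gene that passed the adjusted p. It went from 133, 168 and 132 to 189, 230 and 202 reads, a log2 fold change of 0.49 (SE 0.11, adjusted p = 5.1e-04, edgeR) with no overlap. In PC3 it had 88, 67 and 77 and then 81, 70 and 72 reads, with overlap. HOXB2 rose from 185, 223 and 193 to 285, 237 and 267 reads (0.37, SE 0.1, adjusted p = 0.0032, edgeR). HOXA3 and HOXB2 passed in each of the 16 alternative settings. HOXB9 went from 29, 32 and 48 to 59, 59 and 52 reads, a 1.53-fold rise (log2 fold change 0.62, SE 0.22, adjusted p = 0.023, edgeR), without overlap but with 1 vehicle library close to the treated ones.

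HOXC6 had 24, 21 and 20 reads and then 38, 42 and 32 (log2 fold change 0.75, SE 0.27, adjusted p = 0.025, edgeR), and HOXB6 21, 23 and 25 and then 40, 23 and 51 (0.7, SE 0.28, adjusted p = 0.047, edgeR). The HOXC6 groups were apart, and 1 treated library of HOXB6 lay within the vehicle range. HOXC10, a posterior limb gene, had 98, 100 and 97 reads and then 120, 148 and 132 (0.41, SE 0.13, adjusted p = 0.013, edgeR), also without overlap. HOXC8 (160, 169 and 180 to 221, 201 and 222), HOXB3 (333, 346 and 355 to 434, 395 and 419), HOXB7 (155, 181 and 182 to 234, 207 and 209) and HOXD9 (92, 113 and 100 to 145, 118 and 133) had log2 fold changes of 0.31, 0.25, 0.3 and 0.35. None of these 4 overlapped. The count of 10 fell to between 3 and 7 in each of the 6 fits with a library left out. It was 3 without DU145 pentamidine replicate 1, 6 without DU145 vehicle replicate 1 and 7 in the other fits, and it was 2 with DESeq2. HOXB9, HOXC6 and HOXD9 were each lost in 4 of the 6 fits with a library left out and HOXB6 in 5. The posterior genes that were on only in DU145 did not pass, with log2 fold changes of 0.36 for HOXA11 (SE 0.24), 0.07 for HOXA13 (SE 0.32) and 0.31 for HOXC13 (SE 0.18).

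**Figure D4:**
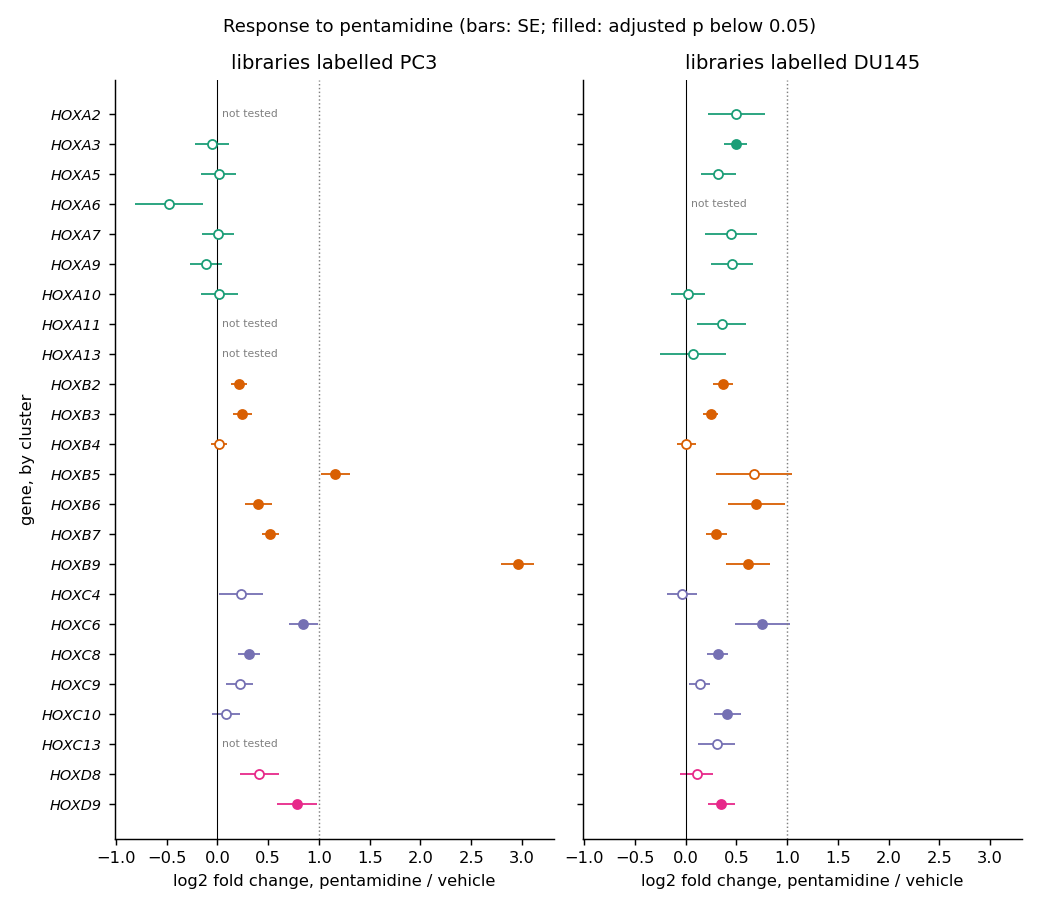
Log2 fold change of pentamidine over vehicle (horizontal, bars of 1 SE) for each member reported by name and tested in at least 1 line (vertical, by cluster and number), in PC3 on the left and DU145 on the right, filled where the adjusted p was below 0.05. All filled points lie to the right of 0, and the dotted line at 1 is passed by HOXB5 and HOXB9 in PC3 and by no member in DU145.

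The lines share no samples, and 8 members passed the adjusted p in both, which is 8 of the 9 in PC3 and 8 of the 10 in DU145. They were HOXB2, HOXB3, HOXB6, HOXB7, HOXB9, HOXC6, HOXC8 and HOXD9. Of the members tested in both lines this was 8 of 20, each higher in both, where 22% of the 13125 genes tested in both passed in both and 9.94% were higher in both. Each of the 8 was lost in at least 1 fit with a library left out, in 1 line or the other. HOXB5 passed in PC3 and gave 0.67 in DU145 (SE 0.38, adjusted p = 0.17, edgeR). HOXA3 and HOXC10 passed in DU145 and gave -0.05 and 0.09 in PC3.

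The difference between the responses was tested as the interaction of treatment and line over all 12 samples, where 20.4% of 15226 genes had an adjusted p below 0.05, 10.2% higher and 10.3% lower in PC3, and 2 of 25 members did. Both were also past an absolute log2 difference of 1, where 2.62% of all genes were called, 1.71% higher and 0.906% lower. For all genes the split at the adjusted p alone was 1546 higher and 1566 lower, and 1128 and 2265 with library size alone. HOXB9 rose more in PC3, by 2.34 on the log2 scale (SE 0.27, adjusted p = 2.5e-07, edgeR), and this held in each of 21 alternative settings, between 1.89 and 2.5. HOXC13, which passed the filter through DU145 alone, gave 2.39 (SE 0.86, adjusted p = 0.048, edgeR) from the few PC3 reads above, and was lost in 16 of 20 alternatives, with adjusted p of up to 0.87. For HOXA3 the interaction was -0.55 (SE 0.2, adjusted p = 0.056, edgeR). For HOXB5 it was 0.49 (SE 0.4, adjusted p = 0.44, edgeR), for HOXC6 0.09 (SE 0.28) and for HOXB4 0.01 (SE 0.12).

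**Figure D5:**
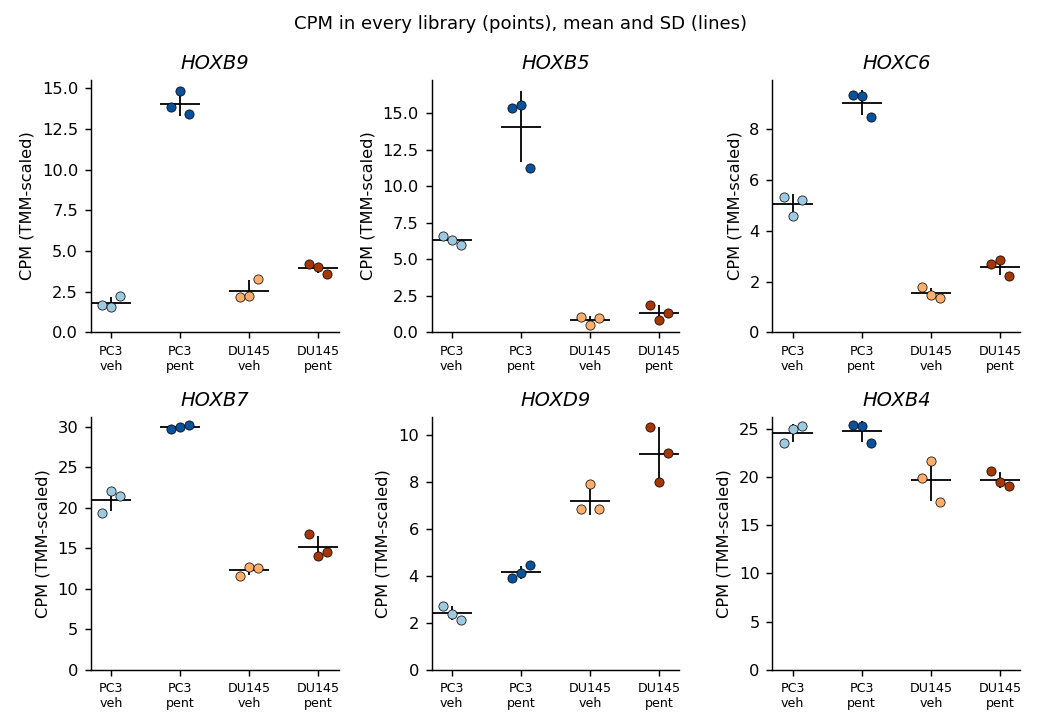
CPM (vertical, TMM-scaled) of 6 members in each of the 12 libraries (points) with the group mean and SD (lines), by group (horizontal). HOXB9 lies between 13.43 and 14.85 CPM in the 3 treated PC3 libraries and at 4.212 CPM or less in the other 9, and HOXB4 overlaps between vehicle and pentamidine in both lines.

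Noncoding transcripts within the clusters were read beside the members. Of 18 listed, 11 were tested in PC3 and 3 passed the adjusted p, where 43.4% of all genes passed. HOXB-AS4, near HOXB9, had 15, 20 and 12 reads with vehicle and 38, 30 and 31 with pentamidine in PC3 (log2 fold change 1.08, SE 0.28, adjusted p = 0.0052, edgeR), with no overlap. In DU145 it had 16, 20 and 24 and then 20, 21 and 19 reads (-0.02, SE 0.31), and the interaction was 1.1 (SE 0.4, adjusted p = 0.05, edgeR), just above the threshold at 0.0502. HOXB-AS1 rose in PC3 (0.57, adjusted p = 0.047, edgeR). HAGLR, antisense to the HOXD1 and HOXD3 region, fell from 33, 32 and 29 to 19, 17 and 14 reads in PC3 (-0.9, SE 0.28, adjusted p = 0.014, edgeR), opposite to HOXD9. In DU145 it had 136, 145 and 147 and then 125, 119 and 123 reads (-0.25, SE 0.12, adjusted p = 0.12, edgeR). There 1 of 10 transcripts tested passed, where 34% of all genes did. This was HOXD-AS2, with 12, 2 and 5 reads and then 10, 16 and 24 (1.35, SE 0.46, adjusted p = 0.019, edgeR). Its groups overlapped, and only the treated group had at least 10 reads in every sample. HOXD-AS2 thus entered the test through its higher group. HOTAIR had 0 reads in every PC3 library and 0 to 4 in DU145.

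Regulators of HOX genes moved in both directions, and their counts are to be read against the 43.4% of all genes that passed in PC3 and the 34% in DU145. The TALE homeodomain proteins (PBX, MEIS and PKNOX) bind DNA together with HOX proteins, and 2 of 6 tested passed in PC3, both lower. MEIS2 fell by 0.49 on the log2 scale (SE 0.06, adjusted p = 8.8e-06, edgeR) and PBX4 fell by 0.78 (SE 0.22, adjusted p = 0.0083, edgeR). In DU145 1 of 7 passed, MEIS3, with 4, 11 and 11 reads and then 24, 22 and 25 (1.41, SE 0.37, adjusted p = 0.0022, edgeR). Only its treated group had at least 10 reads in every sample, so MEIS3 entered the test through its higher group. In PC3 MEIS3 had 1, 2 and 4 reads and then 8, 7 and 11, also without overlap, and was not tested there. Between the vehicle groups MEIS2 and PBX3 were higher in PC3 by 1.47 and 1.04.

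Of 28 Polycomb genes, whose products silence HOX clusters, 17 passed in PC3, 8 higher and 9 lower, and 12 in DU145, 9 higher and 3 lower. The core subunits EED and SUZ12 fell by 0.4 and 0.32 in PC3, and CBX2 fell by 0.85, while CBX7 and PHC2 were higher by 0.69 and 0.52. EZH2, the catalytic subunit, gave 0.09 in PC3 (adjusted p = 0.14, edgeR) and 0.23 in DU145 (adjusted p = 2.7e-05, edgeR). Of 14 MLL/Trithorax genes 4 passed in each line, 1 higher and 3 lower. DOT1L, a histone methyltransferase of the MLL pathway, fell by 0.48 in PC3 and KDM6B, a demethylase that removes the Polycomb mark, was higher by 0.36.

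Retinoic acid switches on 3′ HOX genes in the embryo, and 4 of 7 tested genes of its pathway passed in PC3, 3 higher and 1 lower. RARG, a retinoic acid receptor, fell in PC3 from 99, 101 and 78 to 46, 37 and 59 reads (log2 fold change -0.96, SE 0.18, adjusted p = 4.2e-04, edgeR) and rose in DU145 from 286, 271 and 293 to 318, 375 and 329 (0.24, SE 0.08, adjusted p = 0.023, edgeR). Its interaction was -1.2 (SE 0.18, adjusted p = 1.7e-05, edgeR). RXRB, a partner receptor, rose in both lines, by 0.47 and 0.37. In DU145 3 of 7 passed, 2 higher and 1 lower. Between the vehicle groups the genes of enzymes that make retinoic acid differed. The log2 fold changes of PC3 over DU145 were 6.89 for ALDH1A1 and -6.23 for ALDH1A3. ALDH1A1 did not pass the filter within DU145 and entered this comparison through PC3 alone, so the size of its fold rests on few DU145 reads. CYP26B1, whose enzyme breaks retinoic acid down, had -3.47.

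Genes that flank the clusters were set beside the members to compare the clusters with their surroundings. Of 8 tested, 5 passed in PC3, 3 higher and 2 lower, and 4 in DU145, all higher. Of all genes 43.4% passed in PC3 and 34% in DU145, and of the members 42.9% and 41.7%. CALCOCO2, an autophagy receptor gene on the HOXB side, rose by 0.99 in PC3 (SE 0.06, adjusted p = 7.2e-10, edgeR) and by 0.44 in DU145 (SE 0.05). LNPK and MTX2, on either side of HOXD, gave -0.64 and 0.29 in PC3. CBX5 on the HOXC side fell by 0.51 in PC3 and rose by 0.17 in DU145 (adjusted p = 6.5e-04, edgeR). LNPK and CBX5 were the 2 flanking genes that passed lower in PC3. Over the 8 tested the median log2 fold change was 0.12 in PC3 and 0.17 in DU145.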

How the data were processed

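RNA from 12 samples was sequenced in the study, and per the study's methods poly(A) RNA was selected and paired reads were aligned with HISAT2 (2.1.0). The submitters' processing notes name GRCh38. The counting program and its strand setting are not given in the sources used here. The authors deposited whole-number read counts per gene, not normalized, and a table named for FPKM whose values were CPM, since 100% of its 384924 deposited values were each gene's reads over its library's sum, within 1 part in 100000. Further deposited tables hold the authors' own fold changes and p-values and were not used.

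The table had 33595 entries, and 32077 genes remained after identical entries of a name were kept once. Of the gene names, 24 had been turned into dates. Coordinates are those of the table, and 36 of 37 members had the same ones in GENCODE release 29, from which exon lengths were taken. For promoter windows and homeoboxes, RefSeq and GENCODE sequences were searched by string matching.

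Groups were compared by the quasi-likelihood F test of edgeR (4.0.16, R 4.3.3) with TMM, filterByExpr (minimum count 10) and p-values adjusted after Benjamini and Hochberg over all genes tested, with the 6 samples of each comparison, or all 12 for the interaction. Calling followed the study's rule (absolute log2 fold change above 1, adjusted p below 0.05). The procedure was tested on simulated data. Intervals of a fold change are 1.96 SE on either side. Exact 95% intervals and the limit of 3 reads cover counting error only, since reads carry no molecular identifiers. Replicates differed by more than sampling noise (mean chi-square per gene 1.72 to 7.3), so each counted once.

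Per-sample values are given for members with an adjusted p below 0.05 in a treatment comparison or the interaction, the highest member per kilobase of each cluster and line, and the 2 members per cluster with the largest fold between lines among those with at least 10 reads in every sample of the higher line. Other members named were chosen after their values were seen. Some items of the members and lists are counted but not reported by name or sequence here. The members, lists and motifs were chosen with earlier results of these data known. Alternatives were DESeq2 1.42.0, RLE or library size in place of TMM, no mitochondria-encoded genes, other count filters, the replicate number as a block, limma 3.58.1 on log2(CPM + 1) and log2(CPM + 0.1), 1 fit of all 12 samples, an adjusted p below 0.01, other limits for on, and each sample left out.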

Additional observations from a re-analysis of the deposited data

Results flagged for a closer look

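The response of HOXB9 to pentamidine differed between the lines in the test of the interaction. HOXB9 rose more in PC3 than in DU145, by 2.34 on the log2 scale (SE 0.27, adjusted p = 2.5e-07, edgeR, adjusted after Benjamini and Hochberg), and was higher in 3 of 3 treated PC3 samples and 3 of 3 treated DU145 samples than in every vehicle sample of the same line. HOXC13 also passed, at 2.393 (SE 0.86, adjusted p = 0.048, edgeR), but it had 0 to 8 reads in any PC3 library, entered the fit through DU145 alone, and was lost in 10 of 12 fits with a library left out, which gave 1.906 to 2.776, so a difference between the lines was not established for it.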

How the results depend on the processing

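Of 41 results for single members, 27 kept their direction and their side of the threshold in every alternative, and over 659 values 580 did, 79 lost the threshold and 0 reversed. HOXB9, HOXB5, HOXB7, HOXC6 and HOXD9 in PC3 and HOXA3 and HOXB2 in DU145 kept theirs in all 16. In PC3, 2 members were called in each fit that left out a library, and 6 to 8 passed the adjusted p alone, which gave 5 at an adjusted p below 0.01. In DU145, 0 were called in each such fit and 1 (HOXA4, with 0 or 1 reads in every vehicle library) without a filter on low counts. The adjusted p alone gave 3 to 7 members in DU145 with a library left out, 2 with DESeq2 and 3 below 0.01, against 10, and the cause was not tested. Between the vehicle groups 13 to 15 members were called with a library left out, and 8 where every sample had to have at least 10 reads, a filter that removes genes absent from 1 line. For the interaction 1 or 2 members passed with a library left out, 1 with DESeq2, 1 below 0.01 and 1 with the replicate block. In DU145 vehicle 15 members were on at 1 CPM per kb of exon in each sample, against 23, and in PC3 vehicle 19, against 21, so the order of the lines turned. The number on with a library left out was 21 to 25 over the groups.

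Same-numbered samples showed no strong shared deviation (correlations -0.156 to 0.0515). This cannot show that the numbers mark no pairs, and no label says whether they do. With the replicate number as a block, 2 members were called in PC3, 0 in DU145 and 13 between the vehicle groups. Members with few reads, such as HOXA4, HOXB8, HOXC5 and HOXD1, did not pass the filter in any comparison. From summed reads HOXA4 was at 14 against 1 in DU145 with pentamidine (ratio 14.2, exact 95% interval 2.17 to 602, counting error only).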
